A study of Homo sapiens with 12 samples.

Results

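The genes that fold proteins in the endoplasmic reticulum (ER) and the genes that remove misfolded proteins from it by ER-associated degradation (ERAD) were examined in HCT116 cells, an established human colorectal carcinoma line, wild type by its label. The members are a list of 39 names, drawn up with earlier results of these data known, and 38 rows of the 60708 in each gene count table carried one of them. The remaining name, VIMP, is an older name of SELENOS, which has its own row. By role, 11 members are chaperones of the HSP70 and HSP90 type and their co-chaperones, 9 are disulfide isomerases and oxidases, 2 are lectin chaperones, 14 belong to ERAD, and 2 are proline isomerases.

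Cells had been treated for 24 h with oligomycin A (OA), which blocks the mitochondrial ATP synthase, or with tunicamycin (TN), which blocks the start of N-glycan synthesis, and their total RNA was sequenced. Each stressor had 3 libraries, named as biological replicates in the labels, and 3 DMSO-treated libraries of its own, 12 in all. All were grown in RPMI1640 with fetal bovine serum, and the labels give a dose of 5 µg/ml for both stressors. The methods text gives another dose for OA, so the dose of OA is uncertain. The data come from 1 cell line and 1 time point, and the replicates sample that line only. The epithelial keratins and EPCAM were well expressed, with EPCAM at 80.2 to 301.2 CPM (counts scaled to a common library size), whereas the intestinal markers LGR5 and CEACAM5 had no count in any library and VIL1 at most 3. Of the other epithelial and intestinal markers, CDH1 was at 32.6 to 179 CPM and CDX2 at 5.92 to 15.7 CPM. The 8 leukocyte markers summed to at most 0.737 CPM in any library. The 9 fibroblast and endothelial markers summed to 1.82 to 2.75 CPM in the DMSO libraries run with OA, and to 5.90 to 13.4 CPM under OA. In TN libraries they summed to 2.77 to 4.74 CPM, within the 2.68 to 5.59 CPM of the DMSO-treated cells. Of the 9, COL1A1 alone had a mean of at least 1 CPM, with 1.15 to 12.4 CPM over the libraries, and none of the rest exceeded 1.04 CPM in any library. The part of these genes in the results was not tested.

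Proteins that enter the ER are bound by chaperones such as HSPA5, are glycosylated and held by the lectins CANX and CALR, and receive disulfide bonds from the isomerases of the PDI family. Molecules that fail to fold are recognised by lectins, pass through a membrane complex built around the ubiquitin ligase SYVN1 and its adaptor SEL1L, and are degraded by the proteasome. When unfolded proteins accumulate, the unfolded protein response, relayed by ATF6, XBP1 and ATF4, raises the transcription of many of these genes, and TN is a classical inducer of it.

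Libraries held 9884124 to 24983573 counts. CPM values below use effective library sizes from trimmed mean of M-values (TMM) scaling, and levels compared between genes are CPM per kilobase of the Ensembl canonical transcript. The 3 OA libraries did not behave alike. In OA library 2, the deviations of genes from the OA mean rose with GC content, with a correlation of 0.51 across 13082 genes and 0.78 across the 36 tested members, and in OA library 1 they fell with it, with -0.64 and -0.84. In TN library 1 the correlations were 0.70 across 13013 genes and 0.83 across the members, whereas in TN libraries 2 and 3 they were negative, with -0.74 and -0.80 across the members. The DMSO libraries, set against their own group means, were skewed as well. Across all genes the correlations were -0.71, 0.64 and -0.08 in DMSO libraries 1 to 3 of the OA experiment. In those of the TN experiment they were 0.50, -0.35 and -0.49. Across the members they were -0.82, 0.81 and -0.47 with the OA experiment and 0.67, -0.49 and -0.60 with the TN experiment. These correlations are across genes that share a library, and genes are not independent replicates.

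With TN, most members were called higher. Of the 36 members that passed the filter on low counts, 25 (69.4%) were higher in TN-treated cells at an adjusted p under 0.05 (quasi-likelihood F-test of edgeR, p adjusted by Benjamini-Hochberg across the genes tested), and none was lower. Across all 14432 tested genes, 3.65% were called higher and 3.34% lower. The log2 fold changes of the members ran from -0.29 in FAF2 to 3.04 in HERPUD1, with a median of 1.58, while the median of all genes was -0.03. With OA fewer members were called. Only HSPA5, HERPUD1, EDEM1 and SIL1, 4 of 36 (11.1%), passed the same threshold against 2.76% of 14681 genes, and none was lower against 1.72%. The median of the members was 0.90 against -0.02 over all genes. The log2 fold change was positive in 35 of 36 members, against 7158 of all 14681 genes. In 10 of these 35 members it turned negative under at least 1 alternative, such as leaving out a library. In neither of these fits, made without a block or an offset, was a member lower at an unadjusted p under 0.05, and DESeq2 called none lower.

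**Figure D1:**
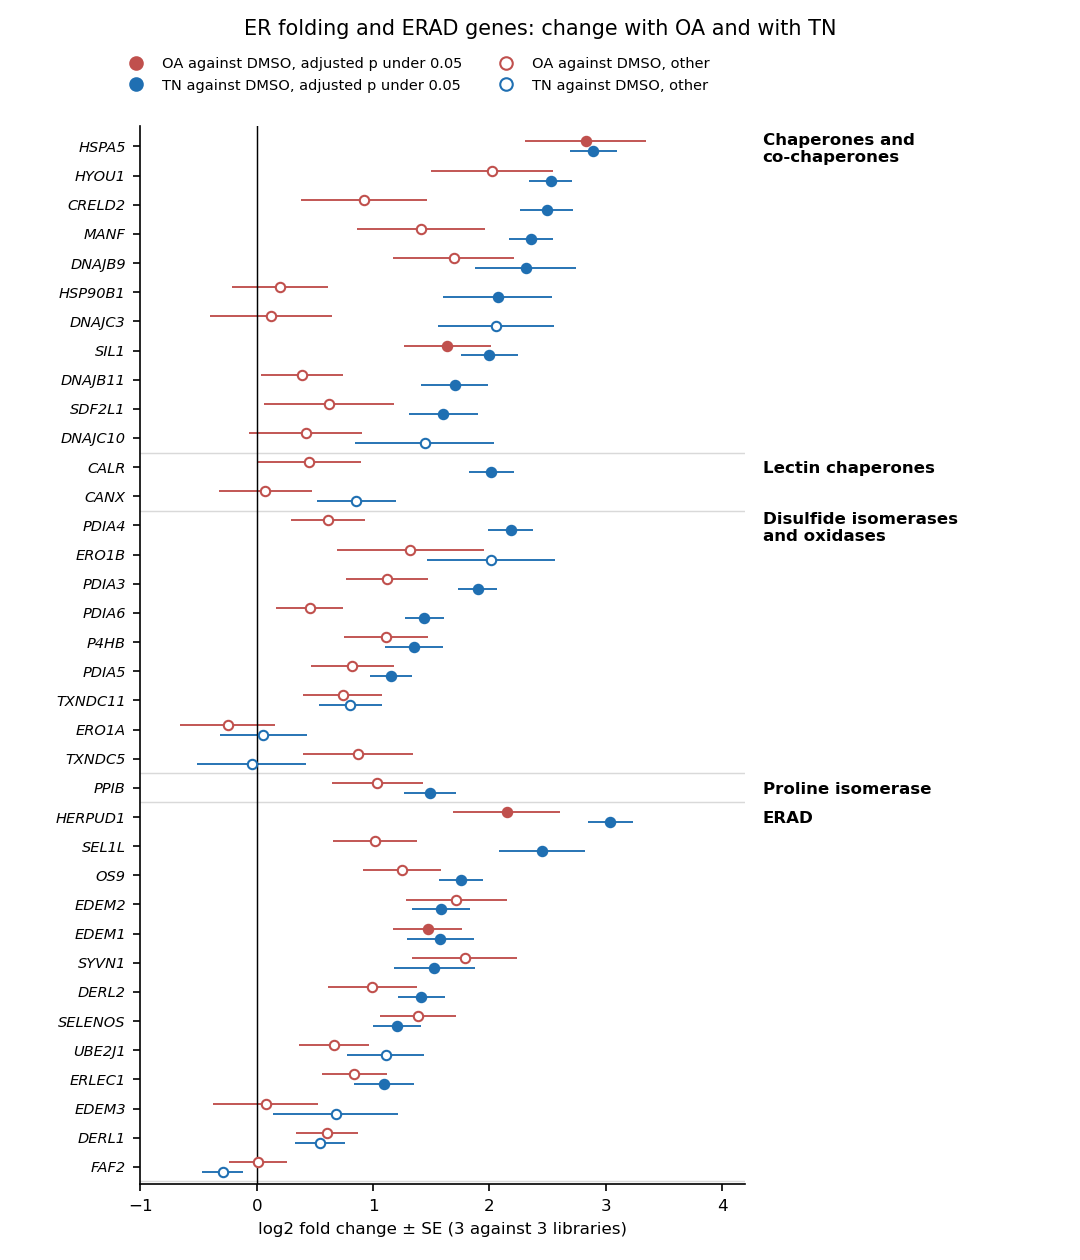
Log2 fold change with its SE (horizontal axis) of the 36 tested members with OA (red) and TN (blue), each 3 against 3 libraries, grouped by role and ordered by the TN value. Filled points have an edgeR adjusted p under 0.05, 25 with TN and 4 with OA. Most blue points lie to the right of the red point of the same gene.

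The counts of calls depended on the libraries. With TN, 15, 10 and 10 members passed without DMSO library 1, 2 or 3, against 1.71%, 0.664% and 0.531% of all genes, and 30, 15 and 14 passed without TN library 1, 2 or 3, against 7.26%, 1.2% and 1.27%. The 10 members called in all of these 6 fits were HERPUD1, HSPA5, HYOU1, CRELD2, MANF, SIL1, PDIA3, PDIA4, CALR and OS9. The other 15 passed in 1 to 4 of them, and their highest edgeR adjusted p was 0.208, in ERLEC1. With the replicate number as a block, taken to pair the TN libraries with their controls, 32 members were called with TN against 11.8% of all genes. The deviations of TN library 2 correlated at 0.41 and 0.44 with those of DMSO libraries 2 and 3, and those of TN library 3 at 0.38 and 0.43. The pairing of these libraries is thus an assumption. With OA, no member passed without OA library 3 or without any 1 of the 3 DMSO libraries, 8 passed without OA library 2, and 10 passed without OA library 1. In these fits 0.432% of all genes were called higher without OA library 3, 0.0335%, 0.02% and 0.0201% without DMSO library 1, 2 or 3, 3.16% without OA library 2 and 4.69% without OA library 1. An offset for GC content gave 16 calls with OA, against 9.07% of all genes, DESeq2 gave 12, against 7.81%, and with the offset the median of the members was 0.92. The part of GC content in the calls was not tested beyond this offset.

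The members took a larger share of all counts under both stressors. With TN, their share went from 0.679% ± 0.0501 (SD, n = 3) in DMSO-treated cells to 2.04% ± 0.392. With OA it went from 0.652% ± 0.0441 to 1.02% ± 0.243. RN7SL1, the RNA of the signal recognition particle, was higher in the same libraries, taking 6.02% to 8.11% of a library in the controls of OA, slightly more in OA library 1, and 17.9% and 12.5% in OA libraries 2 and 3. In the TN experiment it was at 6.23% to 7.50% in DMSO and at 13.3%, 9.22% and 10.0% in TN libraries 1 to 3, and its part in the results was not tested. Summed over members, the 3 TN libraries reached 20051, 22090 and 21851 CPM, each above the 6238 to 6548 CPM of DMSO-treated cells. OA library 2 stood apart with 17370 CPM, beside 9063 and 8037 CPM in OA libraries 1 and 3 and 5779 to 6322 CPM in their DMSO libraries. The groups did not overlap in either comparison, and 0.1 is the smallest two-sided p that an exact permutation test of 3 against 3 libraries can give. In bulk RNA, a change in the number of cells that use a gene and in RNA per cell cannot be told apart.

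The composition of this pool changed as well. HSPA5 held 2.29% to 2.72% of the members' counts in the controls of OA and 6.67% (95% exact binomial interval 6.53 to 6.81), 12% (11.8 to 12.1) and 7.18% (7 to 7.36) in the OA libraries. In TN libraries it held 7.02% (6.91 to 7.14), 5.37% (5.28 to 5.46) and 4.75% (4.67 to 4.83), above 2.47% to 2.64% in DMSO. CANX moved the other way as a share, from 15.3% to 17.3% of the members' counts in DMSO to 4.96%, 10.8% and 10.9% in TN. The intervals cover counting error only, since the reads carry no molecular identifiers.

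Members whose transcription rises together in the unfolded protein response are known for shared promoter elements, so the sequence upstream of the start site is given for the 3 members with the largest rise under TN. The sequences are from RefSeq (GRCh38.p14), 160 bases each, from 200 to 41 bases before the annotated start, 5′ to 3′ on the strand of the gene. Capitals mark exact matches to 4 motifs on either strand: the ER stress response element (ERSE, which is CCAAT, 9 bases of any kind and CCACG), ERSE-II (ATTGG, 1 base of any kind and CCACG), the unfolded protein response element (UPRE, TGACGTGG) and the CARE site of ATF4 (TGATGNAA). HSPA5 lies on the minus strand of chromosome 9 at 125234853 to 125241382, HYOU1 on the minus strand of chromosome 11 at 119044188 to 119057227, and HERPUD1 on the plus strand of chromosome 16 at 56932142 to 56944864 (hg38). The windows are chr9:125241384-125241543, chr11:119057246-119057405 and chr16:56931942-56932101.
HSPA5: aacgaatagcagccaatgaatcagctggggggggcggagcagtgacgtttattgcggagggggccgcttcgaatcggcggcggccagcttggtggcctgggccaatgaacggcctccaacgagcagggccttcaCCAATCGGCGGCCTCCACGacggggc
HYOU1: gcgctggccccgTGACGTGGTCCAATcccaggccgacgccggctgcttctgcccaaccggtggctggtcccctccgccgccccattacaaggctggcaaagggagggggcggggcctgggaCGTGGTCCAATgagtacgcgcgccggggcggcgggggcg
HERPUD1: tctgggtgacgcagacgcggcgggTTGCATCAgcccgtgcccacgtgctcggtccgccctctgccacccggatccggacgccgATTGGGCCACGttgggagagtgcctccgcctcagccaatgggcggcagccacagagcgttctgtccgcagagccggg

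HSPA5 held 1 exact ERSE, starting 66 bases before the start site. HYOU1 held ERSE-II in reverse at 2 places, the farther one sharing its bases with a UPRE, and HERPUD1 held an ERSE-II and a CARE site in reverse. A window of 250 bases before to 50 after the start was found for 35 of the 38 members. An exact ERSE occurred in 7 of these 35 (20%) and in 25 of the 27305 genes of the RefSeq table (0.0916%), and ERSE-II in 3 members (HYOU1, SDF2L1 and HERPUD1) and in 19 genes (0.0696%). UPRE, a short motif, was in 5 members and 0.927% of genes, and CARE was in 1 member and 4.46% of genes. The ERSE matches of the remaining 6 members are shown with 5 flanking bases each, 1 match per member, in the order of their TN change and on the strand of the gene.
CRELD2: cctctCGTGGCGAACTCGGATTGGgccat
HSP90B1: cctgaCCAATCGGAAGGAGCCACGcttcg
CALR: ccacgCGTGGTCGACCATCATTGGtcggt
ERO1B: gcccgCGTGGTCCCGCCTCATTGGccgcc
PDIA6: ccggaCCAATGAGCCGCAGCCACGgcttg
CANX: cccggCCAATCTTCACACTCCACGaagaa

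The lines for CRELD2, CALR and ERO1B show the element in reverse. HSP90B1 held a further exact match in reverse, and the match in CANX lies at several distances because RefSeq gives this gene several start sites. The 10 tested members with ERSE or ERSE-II had a median log2 fold change of 2.04 with TN, and 8 of them were called. The 24 tested members whose window held neither had a median of 1.47, with 16 called, against 3.65% of all genes called higher. With OA, the medians were 0.77 (2 called) and 0.93 (2 called), against 2.76% of all genes. These are descriptions of the listed genes, and a match of letters is not evidence of binding.

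**Figure D2:**
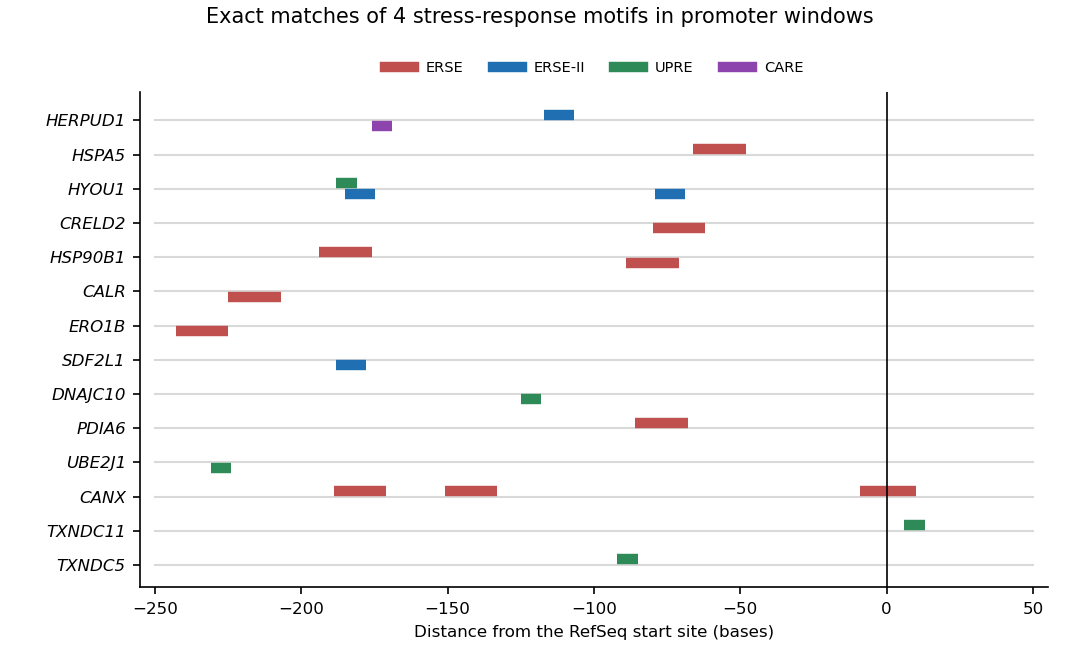
Exact matches of ERSE, ERSE-II, UPRE and CARE in windows of 250 bases before to 50 after the RefSeq start site (horizontal axis, bases), for the 14 members with a match, ordered by their TN change. Bars above the grey line are on the strand of the gene and bars below it are in reverse. The bars of CANX are 1 site seen from several start sites.

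HSPA5 (BiP), the HSP70 chaperone of the ER lumen, had the largest rise with OA. It lay at 165, 138 and 157 CPM in DMSO libraries 1 to 3 and at 604, 2080 and 577 CPM in the OA libraries. All 3 OA libraries were above all 3 controls, and library 2 was far above the others. The log2 fold change was 2.83 ± 0.52 (SE; edgeR adjusted p = 0.0301). Without OA library 2 it was 1.95 (edgeR adjusted p = 0.00486), whereas without OA library 3 or any 1 DMSO library it was 2.78 to 3.12 with edgeR adjusted p of 0.0581 to 0.161. With TN, HSPA5 went from 154, 172 and 162 CPM to 1410, 1190 and 1040 CPM, a log2 fold change of 2.90 ± 0.21 (edgeR adjusted p = 0.0024). The TN libraries lay close together and well clear of their controls.

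HYOU1, an HSP70-related protein that exchanges the nucleotide of HSPA5, stood at 221, 273 and 245 CPM in DMSO and at 480, 1960 and 563 CPM with OA. The groups did not overlap, but the log2 fold change of 2.02 ± 0.53 missed the threshold (edgeR adjusted p = 0.0681), and without OA library 2 it was 1.07 and passed (edgeR adjusted p = 0.0247). In the TN experiment it was at 233, 221 and 201 CPM in DMSO and 1320, 1160 and 1300 CPM in TN-treated cells, a rise of 2.53 ± 0.19 (edgeR adjusted p = 0.0024). SIL1, a further nucleotide exchange factor of HSPA5, was 34.6, 44.2 and 35.6 CPM in DMSO and 79.4, 192 and 85.4 CPM with OA. Its log2 fold change of 1.64 ± 0.38 passed narrowly (edgeR adjusted p = 0.04995), and without OA library 3 or any 1 DMSO library it was 1.59 to 1.82 with edgeR adjusted p of 0.0925 to 0.223. TN raised SIL1 from 41.1, 34.7 and 35.3 to 190, 122 and 133 CPM, by 2.00 ± 0.24 on the log2 scale (edgeR adjusted p = 0.0066).

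HSP90B1 (GRP94), the HSP90 of the ER, rose with TN and did not separate from its controls with OA. It was 395, 603 and 667 CPM in DMSO and 913, 3170 and 2910 CPM with TN, a log2 fold change of 2.07 ± 0.47 (edgeR adjusted p = 0.0424). TN library 1 was the lowest of the 3 by a wide margin. When it was left out, the change was 2.51, and when library 2 was left out it was 1.78. It passed in 1 of the 6 fits without a library. With OA the values were 813, 321 and 360 CPM beside 576, 289 and 434 CPM in DMSO, so that the groups overlapped, and the log2 fold change was 0.20 with a 95% interval of -0.74 to 1.15.

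Of the J-domain co-chaperones, which bring clients to HSPA5 and start its ATPase, DNAJB9 and DNAJB11 were called higher with TN. DNAJB9 was 17.4, 25.3 and 24.6 CPM in DMSO and 48.5, 145 and 141 CPM with TN, which gave 2.31 ± 0.43 (edgeR adjusted p = 0.0239). With OA it was 83.7, 25.7 and 33.9 CPM beside 20.5, 7.98 and 16 CPM, without overlap, and its change of 1.69 ± 0.52 did not pass (edgeR adjusted p = 0.103) and was 0.996 without OA library 1. With the GC offset it was 2.16 (edgeR adjusted p = 0.0018), and DESeq2 called it too (adjusted p = 0.0154). DNAJB11, which acts early on nascent chains, went from 33.2, 46.9 and 50.2 to 97.4, 164 and 163 CPM with TN, by 1.70 ± 0.29 (edgeR adjusted p = 0.0167). In OA libraries DNAJB11 was 42.3, 68.2 and 26.7 CPM, overlapping the 38.5, 32 and 34.1 CPM of DMSO. DNAJC3 (p58IPK) and DNAJC10 (ERdj5, which also reduces disulfides) had log2 fold changes of 2.06 and 1.44 with TN, which missed the threshold with edgeR adjusted p of 0.0513 and 0.193. With the replicate block both passed, with edgeR adjusted p of 0.000889 and 0.00863. With OA they were at 0.12 and 0.42. The GC offset gave 0.45 for DNAJC3 and 0.90 for DNAJC10 with OA, and only DNAJC10 passed (edgeR adjusted p = 0.265 and 0.012).

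MANF and CRELD2, small ER-resident proteins known as products of the ER stress response, and SDF2L1, a partner of DNAJB11, completed the chaperone group. MANF was 77.3, 77.0 and 84.7 CPM in DMSO and 458, 378 and 391 CPM with TN, a log2 fold change of 2.36 ± 0.19 (edgeR adjusted p = 0.0026). CRELD2 went from 50.3, 43.3 and 40.0 to 303, 225 and 224 CPM, by 2.49 ± 0.23 (edgeR adjusted p = 0.0031), and SDF2L1 from 47.7, 44.1 and 45.8 to 204, 113 and 102 CPM, by 1.60 ± 0.30 (edgeR adjusted p = 0.0237). With OA, MANF read 104, 427 and 102 CPM beside 75.6, 90.6 and 71.8 CPM in DMSO. CRELD2 read 38.1, 185 and 57.6 CPM beside 42.2, 60.0 and 45.6 CPM, and SDF2L1 read 32.2, 162 and 49.8 CPM beside 44.1, 68.9 and 45.7 CPM. In these 3 genes the OA mean was carried by library 2, and their OA log2 fold changes of 1.41, 0.92 and 0.62 became 0.37, -0.06 and -0.39 without it. In total, 9 of the 11 chaperones and co-chaperones were called higher with TN (median 2.07), against 3.65% of all genes. With OA, 2 were called (median 0.92), against 2.76% of all genes.

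**Figure D3:**
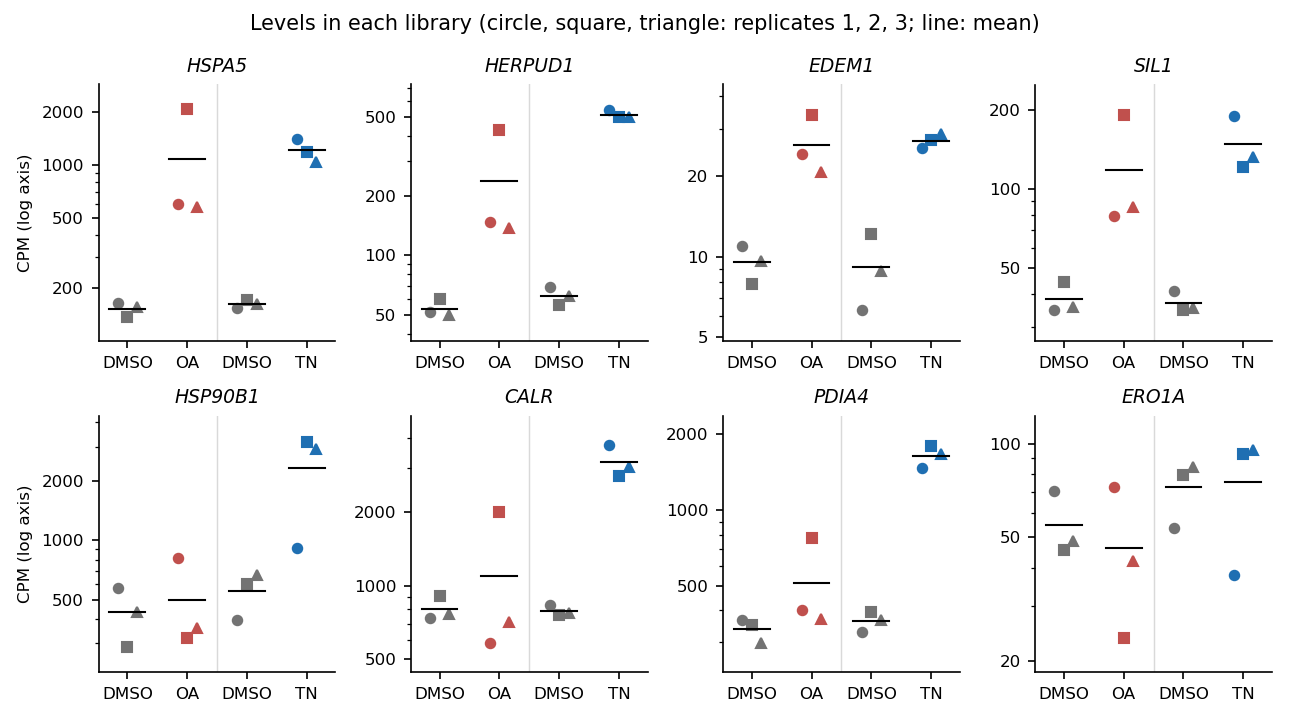
Level of 8 members in each library (vertical log axis, CPM), with OA in red, TN in blue and the DMSO libraries of each in grey, and the mean as a line. OA library 2 (red square) is the highest OA library of HSPA5, HERPUD1, EDEM1, SIL1, CALR and PDIA4 and the lowest of HSP90B1 and ERO1A.

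The lectin chaperones hold glycoproteins that carry a monoglucosylated N-glycan. CALR, the soluble member, was among the most abundant genes of the set per length, at 414 ± 20.7 CPM per kb (SD, n = 3) in the controls of TN. It rose from 833, 759 and 771 CPM to 3720, 2800 and 3050 CPM with TN, by 2.02 ± 0.20 (edgeR adjusted p = 0.0039). With OA it was 583, 2000 and 712 CPM beside 740, 908 and 767 CPM, and OA libraries 1 and 3 lay below all 3 controls. CANX, its membrane-bound counterpart, was 994, 2380 and 2380 CPM with TN beside 957, 1090 and 1130 CPM in DMSO, so library 1 fell within the range of the controls. Its log2 fold change of 0.86 ± 0.34 did not pass (edgeR adjusted p = 0.174) but did with the replicate block (edgeR adjusted p = 0.0298). With OA, CANX was 1490, 494 and 824 CPM, on both sides of 1110, 671 and 885 CPM in DMSO.

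Of the 9 disulfide isomerases and oxidases, 5 were called higher with TN (median 1.35), against 3.65% of all genes. None was called with OA (median 0.82), where 2.76% of all genes were called higher. P4HB, the founding protein disulfide isomerase and the group's most abundant gene per length, was 915, 747 and 696 CPM in DMSO and 2620, 1760 and 1630 CPM with TN (1.35 ± 0.25, edgeR adjusted p = 0.0219). PDIA3, which works with CALR and CANX, was 337, 329 and 322 CPM in DMSO and 1240, 1230 and 1210 CPM with TN (1.90 ± 0.17, edgeR adjusted p = 0.0030). PDIA4 (ERp72) went from 327, 394 and 368 to 1470, 1800 and 1670 CPM (2.18 ± 0.19, edgeR adjusted p = 0.0030). The 3 TN libraries of PDIA3 and of PDIA4 agreed closely and were far above all controls. PDIA6 moved from 314, 315 and 307 to 827, 850 and 864 CPM (1.44 ± 0.17, edgeR adjusted p = 0.0061), and PDIA5 from 29.3, 30.5 and 31.5 to 66.2, 67.1 and 70.1 CPM (1.16 ± 0.18, edgeR adjusted p = 0.0128). Both groups of libraries were tight and apart.

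With OA the same isomerases were highest in library 2. P4HB read 1230, 2980 and 1460 CPM beside 763, 1030 and 825 CPM in DMSO (1.11 ± 0.36, edgeR adjusted p = 0.115), and PDIA3 read 467, 1030 and 442 CPM beside 295, 327 and 272 CPM (1.12 ± 0.35, edgeR adjusted p = 0.109). Their groups did not overlap. PDIA4 read 401, 777 and 369 CPM beside 365, 349 and 298 CPM, so that OA libraries 1 and 3 exceeded the highest control only slightly. PDIA6 was 332, 544 and 280 CPM beside 290, 294 and 259 CPM, with overlap, and PDIA5 was 39.6, 89.1 and 41.1 CPM beside 29.9, 36.4 and 29.6 CPM, without.

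Of the oxidases that recharge the isomerases, ERO1B was higher by 2.01 ± 0.55 with TN from a low level, missing the threshold without the block (edgeR adjusted p = 0.0724) and passing with it (edgeR adjusted p = 0.000889). With OA it was at 1.32 (edgeR adjusted p = 0.253), from 0.94 to 2.25 when 1 library was left out, and at 2.21 with the GC offset (edgeR adjusted p = 0.0237). ERO1A was 53.8, 79.4 and 84.4 CPM in DMSO and 37.9, 92.9 and 95.4 CPM with TN, and 70.7, 45.6 and 48.6 CPM in DMSO and 72.6, 23.7 and 42.1 CPM with OA. Both pairs of groups overlapped, and its log2 fold changes were 0.06 (95% interval -0.82 to 0.93) with TN and -0.25 (-1.18 to 0.68) with OA. The sign of both depended on the library left out, and scaling to total counts turned the TN value to -0.04. TXNDC11, a thioredoxin-like protein of the ER membrane, was at 0.80 with TN, not called without the block (edgeR adjusted p = 0.121) and called with it (edgeR adjusted p = 0.0143) or with the GC offset (edgeR adjusted p = 0.0107). TXNDC5 had only 14 to 79 counts per library, shares 61.0% of its exon bases with the read-through gene BLOC1S5-TXNDC5 in Gencode 44, which had 0 counts in every library, and its value is uncertain.

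ERAD genes were called higher in 9 of 13 tested members with TN (median 1.42), against 3.65% of all genes. With OA, 2 were called (median 1.02), against 2.76% of all genes. HERPUD1, a ubiquitin-like scaffold of the SYVN1 complex, was 68.8, 56.0 and 62.1 CPM in DMSO and 539, 501 and 497 CPM with TN (3.04 ± 0.20, edgeR adjusted p = 0.0024). In OA-treated cells it was 147, 430 and 137 CPM beside 51.5, 59.8 and 49.8 CPM, without overlap (2.15 ± 0.46, edgeR adjusted p = 0.0418). Without OA library 2 the OA change was 1.40 (edgeR adjusted p = 0.014), and without OA library 3 or any 1 DMSO library it was 2.09 to 2.41 with edgeR adjusted p of 0.0696 to 0.199.

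EDEM1, which trims mannose from the glycans of misfolded proteins, was called higher with both stressors. Its levels were low, with 11, 7.90 and 9.66 CPM in DMSO and 24.3, 33.9 and 20.8 CPM with OA (1.47 ± 0.30, edgeR adjusted p = 0.0369). In the TN experiment they were 6.30, 12.2 and 8.83 CPM in DMSO and 25.6, 27.3 and 28.9 CPM with TN (1.58 ± 0.29, edgeR adjusted p = 0.0217). Every treated library exceeded every control. Without OA library 3 or any 1 DMSO library the OA change was 1.40 to 1.62 with edgeR adjusted p of 0.0793 to 0.198. EDEM2, its homologue, was 138, 87.3 and 89.9 CPM with TN beside 38.3, 31.5 and 35.1 CPM (1.58 ± 0.25, edgeR adjusted p = 0.0130). It was 62.2, 200 and 90.9 CPM with OA beside 30.7, 44.1 and 32.5 CPM (1.72 ± 0.43, edgeR adjusted p = 0.0642), and without OA library 2 the change was 1.08. EDEM3 was not called, with 0.68 in TN and 0.08 in OA, and its groups overlapped in both. With the GC offset its TN change was 0.86 and passed (edgeR adjusted p = 0.0199). Its OA change was 0.60 with the offset and did not pass (edgeR adjusted p = 0.078).

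The ligase module was higher in TN-treated cells. SEL1L, the adaptor, went from 46.1, 70.8 and 74.3 to 191, 434 and 421 CPM (2.45 ± 0.37, edgeR adjusted p = 0.0117), and SYVN1, the ubiquitin ligase HRD1, from 6.08, 5.92 and 7.42 to 28.2, 13.6 and 14.2 CPM (1.53 ± 0.35, edgeR adjusted p = 0.0421). TN library 1 was the lowest for SEL1L and the highest for SYVN1. With OA, SEL1L was 156, 67.4 and 112 CPM, overlapping 71.0, 39.9 and 54.6 CPM in DMSO. Its OA change of 1.02 did not pass (edgeR adjusted p = 0.139). The GC offset gave 1.43, which passed (edgeR adjusted p = 0.0019). SYVN1 was 12.1, 38.1 and 15.9 CPM beside 5.45, 7.03 and 6.61 CPM, without overlap (1.79 ± 0.45, edgeR adjusted p = 0.0636), and its change was 1.12 without OA library 2. The canonical transcript of SEL1L has a GC content of 39.3% and that of SYVN1 of 58.5%.

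Among the recognition and channel components, OS9, a lectin that reads trimmed glycans and the ERAD member with the highest level per length, went from 146, 152 and 143 to 570, 450 and 470 CPM with TN (1.76 ± 0.19, edgeR adjusted p = 0.0053). With OA it was 238, 523 and 252 CPM beside 143, 141 and 141 CPM, without overlap (1.25 ± 0.33, edgeR adjusted p = 0.0719). ERLEC1, the related lectin, was 62.0, 97.6 and 106 CPM with TN beside 36, 41.7 and 46.7 CPM (1.10 ± 0.26, edgeR adjusted p = 0.0488), a call that scaling to total counts ended (0.98, edgeR adjusted p = 0.108). Its OA libraries were at 73.7, 48.1 and 53.8 CPM beside 39.6, 25.9 and 32.6 CPM. DERL2, a part of the retrotranslocation channel, was 135, 118 and 126 CPM with TN beside 54.3, 40.8 and 46.7 CPM (1.42 ± 0.20, edgeR adjusted p = 0.0097), and 70.6, 163 and 60.1 CPM with OA beside 51.8, 48.4 and 47.2 CPM. SELENOS, a selenoprotein that docks the p97 ATPase, was 106, 134 and 140 CPM with TN beside 54.9, 60.1 and 49.3 CPM (1.21 ± 0.21, edgeR adjusted p = 0.0175). It was 94.4, 192 and 93.6 CPM with OA beside 50, 49.1 and 46.6 CPM, without overlap (1.38 ± 0.33, edgeR adjusted p = 0.0543).

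DERL1 and UBE2J1, a ubiquitin-conjugating enzyme of the ER membrane, had TN changes of 0.54 and 1.11 that missed the threshold (edgeR adjusted p = 0.169 and 0.0903) and passed with the replicate block (edgeR adjusted p = 0.0245 and 0.00564). UBE2J1 also passed with DESeq2 (adjusted p = 0.0255). The OA changes of DERL1 and UBE2J1 were 0.60 and 0.67 and did not pass (edgeR adjusted p = 0.218 and 0.228). The GC offset gave 0.80 and 1.22 with OA, and only UBE2J1 passed (edgeR adjusted p = 0.105 and 0.0201). FAF2, which recruits p97 to the membrane, was the exception among the well-expressed ERAD members. It was 120, 119 and 118 CPM in DMSO and 98.2, 98.8 and 93.8 CPM with TN, each TN library below each control, and its change of -0.29 ± 0.17 did not pass (edgeR adjusted p = 0.355). It was called lower when the libraries numbered 1 were left out of both groups, a fit in which 22.6% of all genes were called lower. With OA it was 92.3, 144 and 97 CPM beside 109, 118 and 103 CPM. DERL3 had 0 counts in 11 libraries and 1 in the other, and a count of 0 allows up to 3 counts, which is at most 0.316 CPM in any library.

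PPIB (cyclophilin B), the proline isomerase of the secretory pathway, had the highest level per length of all members, 545 ± 42.4 CPM per kb (SD, n = 3) in the controls of TN. It was 530, 469 and 460 CPM in DMSO and 1750, 1170 and 1190 CPM with TN (1.49 ± 0.23, edgeR adjusted p = 0.0115), and 632, 1740 and 730 CPM with OA beside 466, 577 and 468 CPM (1.04 ± 0.39, edgeR adjusted p = 0.163). Without OA library 2 the OA change was 0.43. FKBP2 had 0 to 25 counts, too few for the test. In Gencode 44, 71.0% of its exon bases lie on a further gene of the same strand, with 0 to 10 counts here, so that its low count is uncertain.

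Counting members whose libraries did not overlap, every TN library exceeded every DMSO library in 30 of 36 (83.3%, against 15.9% of all genes), and the reverse held for FAF2 alone (16.8% of all genes). With OA, 20 of 36 (55.6%, against 16.3% of all genes) were higher without overlap and none was lower (15.5% of all genes). Of the 14 members with a GC content of 45% or less, 6 were called with TN (median 1.43), against 3.65% of all genes called higher. None of the 14 was called with OA (median 0.64), against 2.76% of all genes. Of the 22 tested members above 45%, 19 were called with TN (median 1.59) and 4 with OA (median 1.07). With the GC offset the OA medians of these groups were 1.04 and 0.88, and the TN medians were 1.67 and 1.61. The offset called 6 and 10 of these members higher with OA, against 9.07% of all genes, and 12 and 20 with TN, against 11.9%. The 9 members whose GC content was nearest the middle, 43.4% to 48.0%, had a median of 1.12 with OA (3 called: HSPA5, HERPUD1 and EDEM1) and of 1.58 with TN (7 called).

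**Figure D4:**
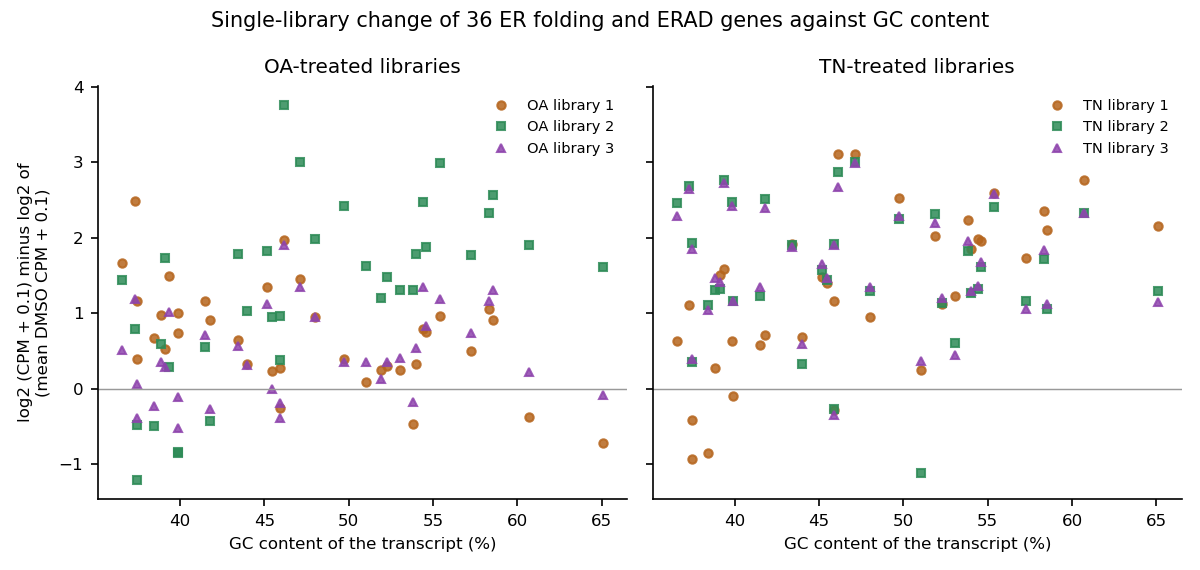
Log2 ratio of each OA library (left) and TN library (right) to the mean of its DMSO libraries, with 0.1 CPM added to both, against the GC content (%) of the canonical transcript for the 36 tested members. In OA library 2 (squares) GC-rich members tend to be high and AT-rich members low, OA library 1 (circles) slopes the other way, and TN library 1 (circles) lies below TN libraries 2 and 3 in level for members under about 45% GC other than DERL1, DERL2 and PDIA3.

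The changes under OA and TN were then compared with each other. The OA change minus the TN change was below 0 in 31 of 36 members and above 0 in 5. Over all 15429 genes tested, it was above 0 in 6796. The median was -0.61 in the members against -0.06 over all genes. No member passed an adjusted p of 0.05 in edgeR's test of the difference over the 12 libraries, and neither did any of the 15429 genes. At an unadjusted p under 0.05, 9 members (25%) were found against 2.26% of all genes, and all 9 differences were negative. The count was 6 without OA library 3 (2.92% of all genes) or TN library 3 (2.17%), 19 without OA library 2 (3.61%) and 16 with the replicate block (5.21%). DESeq2 called 2 genes, none of them a member. Without the filter on low counts 25 genes (0.0801%) were called, among them HSP90B1 (edgeR adjusted p = 0.00889) and DNAJC3 (edgeR adjusted p = 0.0145). Each comparison used its own DMSO libraries, and OA and TN were not paired by any label.

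PDIA4 differed by -1.68 (95% interval -2.44 to -0.91), CALR by -1.68 (-2.73 to -0.62) and CRELD2 by -1.69 (-3.00 to -0.37). HSP90B1 differed by -1.94 (-3.49 to -0.39), DNAJC3 by -2.0 (-3.81 to -0.18), SEL1L by -1.51 (-2.75 to -0.26), DNAJB11 by -1.42 (-2.43 to -0.42), PDIA6 by -1.08 (-1.73 to -0.42) and PDIA3 by -0.88 (-1.69 to -0.08). These intervals are not adjusted for the number of genes. HYOU1, at -0.62 (-1.83 to 0.58), and P4HB, at -0.33 (-1.22 to 0.57), were not among these 9. Leaving out 1 library gave -1.47 to -0.23 for HYOU1 and -0.75 to -0.0063 for P4HB. The replicate block gave -0.89 (-1.72 to -0.05) for HYOU1, with an edgeR adjusted p of 0.921. Without OA library 2, 4 members passed the adjusted threshold (CRELD2, CALR, PDIA4 and MANF), and they were all the genes called in that fit. With the GC offset and the replicate block, DNAJC3, PDIA4 and SEL1L passed, 3 of the 4 genes called (0.0259% of all).

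For the 4 members called with OA the difference was not resolved. For HSPA5 it was -0.18 (95% interval -1.31 to 0.96), and without OA library 2 it was -0.96. For EDEM1 it was -0.20 (-1.01 to 0.61), for SIL1 -0.45 (-1.35 to 0.45), and for HERPUD1 -1.0 (-2.04 to 0.04). Leaving out 1 library gave -0.90 to -0.15 for SIL1 and -1.66 to -0.63 for HERPUD1, both lowest without OA library 2. The replicate block gave -1.18 (-1.91 to -0.45) for HERPUD1, with an edgeR adjusted p of 0.921. The 5 members with a difference above 0 were TXNDC5, at 0.82 (-0.61 to 2.24) on few counts, FAF2 at 0.22 (-0.36 to 0.79), SYVN1 at 0.17 (-0.99 to 1.33), SELENOS at 0.07 (-0.74 to 0.87) and EDEM2 at 0.03 (-1.01 to 1.08). These intervals are wide, so equal responses are not shown. The sign of the difference depended on the library left out for SYVN1, SELENOS and EDEM2, and EDEM2 was at -0.07 with the replicate block. Across the 36 members, the OA and TN changes correlated with a Pearson r of 0.61 and a Spearman rho of 0.51, beside 0.80 and 0.78 over the 14071 genes tested in both. This is across genes, which are not independent.

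**Figure D5:**
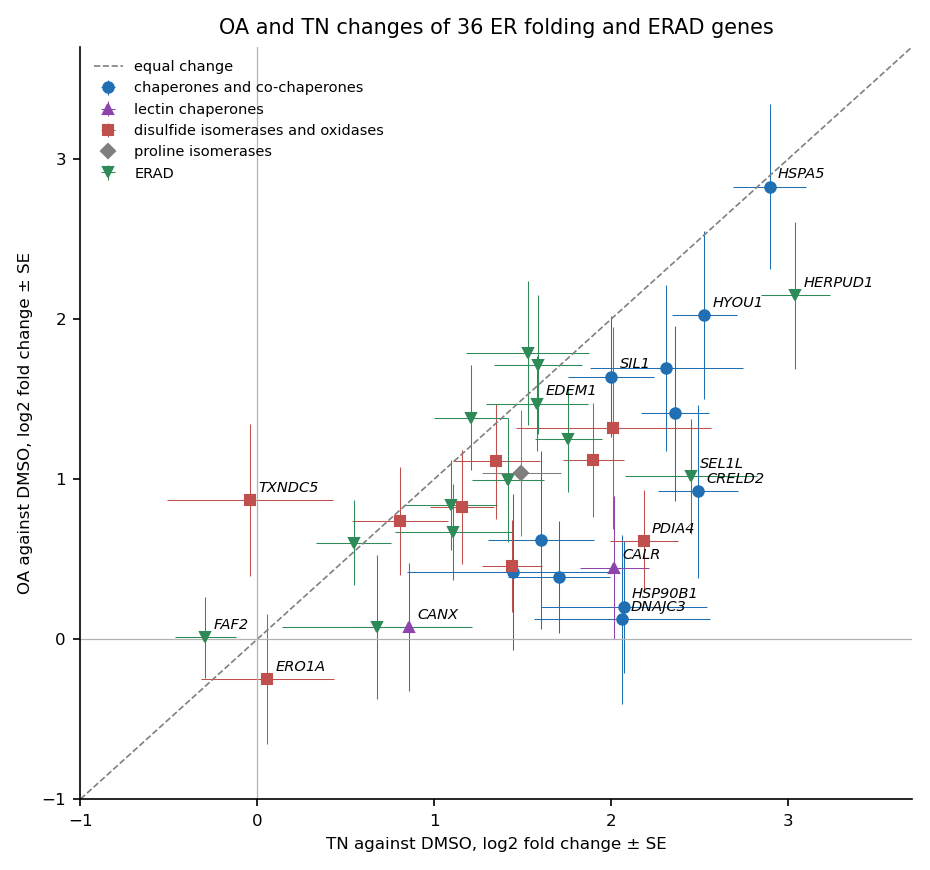
Log2 fold change with OA (vertical axis) against that with TN (horizontal axis) of 36 members, with SE bars, coloured by role. The dashed line marks equal change. HSPA5 (2.83 with OA and 2.90 with TN) and EDEM1 (1.47 and 1.58) lie near it, and PDIA4, CALR, HSP90B1 and DNAJC3 lie well below it.

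Further genes of these pathways were counted in lists drawn up with earlier results of these data known. The shares of all genes called higher were 3.65% with TN and 2.76% with OA, and the single calls below are near them. Of 41 tested genes among 44 further ER folding genes, 6 were higher with TN (UGGT1, SUMF1, CRELD1, FKBP9, ERP44 and ERP29; median of the list 0.55) and 1 with OA (FKBP9, a proline isomerase, with 1.00 ± 0.22, edgeR adjusted p = 0.0461; median 0.30). With the GC offset, 9 of the 41 were higher and 1 lower with OA. Of 32 further ERAD genes, HM13, the signal peptide peptidase, was the sole call with TN (1.51 ± 0.24, edgeR adjusted p = 0.0127; median 0.21), and none was called with OA (median 0.07), where the GC offset gave 6 higher and 1 lower against 9.07% and 8.08% of all genes. With the replicate block, taken to pair the TN libraries, 20 of the 41 folding genes were higher and 2 lower with TN. Of the 32 ERAD genes, 9 were higher and 3 lower, against 1705 higher and 2210 lower among all 14432 genes. Chaperones of the cytosol went in the other direction. Of 30, 12 were called lower with TN (median -0.88, against 3.34% of all genes lower) and 6 with OA (median -0.92, against 1.72%: HSPA1B, TCP1, HSPA8, PTGES3, CCT2 and AHSA1), and 1 had a positive change in each. With the block 22 were lower with TN, and with the GC offset 16 were lower with OA, against 15.3% and 8.08% of all genes. Of 10 mitochondrial chaperones, HSPD1 and HSPE1 were lower with TN and HSPE1 with OA. Of 13 factors and sensors of the unfolded protein response, 8 were called higher with each stressor, and 11 with TN when the block was used.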

How the data were processed

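Per the labels, RNA libraries were prepared from total RNA with a stranded kit. The authors aligned reads to hg38 with STAR and deposited raw gene counts (60708 rows, Gencode annotation). The strand column is not given in the sources used here. Deposited tables of the authors' DESeq2 fold changes and p-values were not used. No per-sample column was left without a library (0).

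Rows carrying a member's symbol were taken. Counts were filtered with filterByExpr, TMM-scaled and tested by edgeR 4.0.16 (R 4.3.3) with the quasi-likelihood test, two-sided, in 1 fit per stressor, with Benjamini-Hochberg adjustment across the genes tested. The SE was taken as log2 fold change over the root of F. The difference was a contrast over 12 libraries. Replicates differed by more than sampling noise. Depth was 9884124 to 24983573 counts, and 95% binomial intervals cover counting error only. Alternatives were DESeq2 1.42.0, its size factors, total-count scaling, a replicate block, no filter or a filter of 10 counts, GC offsets (loess, span 0.3), a fit of all 12 libraries, and leaving out each library. Fits without the libraries that stood apart were chosen after seeing the data. For TN, same-numbered libraries deviated together from their group means (correlations 0.64, 0.41 and 0.43), so the numbers were taken as pairs, although TN library 2 correlated as well with DMSO library 3 (0.44).

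Lengths, GC content and overlaps are from Gencode 44, promoters from RefSeq. The members and lists were chosen with earlier results of these data known. Every member is named, and members called in either comparison and the most abundant of each role have their values in all libraries. The scripts were tested on simulated counts that held no GC or replicate effect. How the block and the GC offset handle such effects was therefore not tested.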

Additional observations from a re-analysis of the deposited data

How the results depend on the processing

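The number of members called higher with OA was 4 and became 12 with DESeq2 (against 7.81% of all genes), 14 without a filter (3.12%), 11 in a fit of all 12 libraries (5.79%), 16 with the GC offset (9.07%) and 8 without both libraries numbered 2 (3.1%). Leaving out 1 library gave 0 to 10. With TN, the 25 calls became 10 to 30 when 1 library was left out, and FAF2 was the 1 member called lower without both libraries numbered 1, where 22.6% of all genes were. The median of the members ranged from 0.47 to 1.03 with OA and from 1.56 to 1.64 with TN when 1 library was left out, and scaling to total counts, which moved the median of all genes to -0.23 and -0.18, gave 0.615 with OA and 1.4 with TN. TXNDC5, FKBP2 and DERL3 had few counts and overlap other genes, so their values are uncertain, and the part of depth was not tested.

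With the replicate block, OA gave 21 calls, against 11.7% of all genes, and 20 together with the GC offset, against 12.8%. Same-numbered OA libraries had correlations of 0.62, 0.54 and 0.09, under the limit of 0.1 for the third pair, so the block was not used as pairing. The block turned FAF2 (-0.0163), CANX (-0.0395) and DNAJC3 (-0.0149) negative with OA and ERO1A (-0.0272) with TN. The causes of these changes were not tested.

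Signs of small changes also turned. With OA these were EDEM3 (-0.0718), FAF2 (-0.236) and CANX (-0.0393) with total counts, FAF2 without a filter (-0.0135) and in a fit of all 12 libraries (-0.0779), and ERO1A with the GC offset, without and with the block (0.156 and 0.179). Without both libraries numbered 2 they were DNAJB11 (-0.0341), FAF2 (-0.142), CALR (-0.196) and SDF2L1 (-0.118). With TN they were ERO1A with total counts (-0.044) and TXNDC5 without both libraries numbered 1 (0.0151). Without 1 library, OA changes ran from -0.371 to 0.564 for EDEM3, -0.199 to 0.823 for DNAJC10, -0.00256 to 0.652 for DNAJB11, -0.223 to 0.111 for FAF2, -0.443 to 0.402 for CANX, -0.361 to 0.526 for HSP90B1, -0.685 to 0.577 for DNAJC3, -0.753 to 0.0836 for ERO1A, -0.323 to 0.732 for CALR, -0.389 to 0.983 for SDF2L1 and -0.0611 to 1.28 for CRELD2. TN changes ran from -0.377 to 0.306 for TXNDC5 and -0.141 to 0.429 for ERO1A. The difference between stressors ran from -0.964 to 0.226 for HSPA5 and -0.376 to 0.0341 for EDEM1. It ran from -0.406 to 0.674 for SYVN1, -0.291 to 0.344 for SELENOS and -0.510 to 0.365 for EDEM2. For DERL1 it was -0.235 to 0.179, for TXNDC11 -0.481 to 0.204 and for ERO1B -1.17 to 0.0561.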
